A study of Nasonia vitripennis and Nasonia giraulti with 12 samples.

Results

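Adult males of the parasitoid jewel wasp Nasonia giraulti were compared with adult females of the same species by sequencing messenger RNA from whole bodies. The comparison uses 6 of the 12 libraries of the series, which were chosen by the species and sex in their labels, 3 from N. giraulti males and 3 from N. giraulti females. All 6 came from strain R16A, sampled 24 h after eclosion, and each was made from a pool of 10 animals, so that variation between single wasps is averaged within a library. The other 6 libraries hold N. vitripennis males and females of strain AsymCX, prepared alike, and enter here through the estimate of the spread and a few direct comparisons. Total counts ran from 26494193 to 39597569 over the 6 N. giraulti libraries, and 3 counts in a single library corresponded to 0.0758 to 0.113 CPM, counts scaled to a common library total.

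Nasonia wasps are haplodiploid. Males develop from unfertilised eggs and carry a single chromosome set, and females develop from fertilised eggs and carry a maternal and a paternal set. The sexes share all chromosomes, and sex is set through the splicing of transformer and doublesex. Adult females mature eggs in ovaries and make venom that is injected into fly pupae when eggs are laid, whereas adult males carry testes and accessory glands. Whole bodies hold all of these organs, and in whole-body RNA a larger or smaller organ cannot be told apart from more or less RNA per cell.

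The files identify genes only by numbered identifiers of a single gene set used for both species, and none of the 24337 identifiers matched a table of gene names. What a gene encodes is therefore not stated, no defining marker of either sex could be looked up by name, and most genes are described by their rank. Gene lengths were not used here, so ranks are ranks of counts, in which a long transcript stands higher than a short one of equal abundance.

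Sex was the main axis of variation among the 6 libraries. In log2 CPM of the 16536 genes that entered the test, 81.9% of the variance fell on principal component 1, and 99.7% of that component lay between males and females. Component 2 took 11.9%, and 97.9% of it followed the replicate number in the labels, with library 1 of males and library 1 of females both set apart from libraries 2 and 3. Correlations of log2 CPM across genes were 0.955 to 0.983 among male libraries, 0.974 to 0.991 among female libraries and 0.802 to 0.844 between a male and a female library. Among 7115 genes whose mean reached 10 CPM in each sex, the median standard deviation between libraries was 0.271 log2 units in males and 0.239 in females.

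A majority of the genes tested differed between the sexes. Of 16536 genes, 4954 were higher in males (30.0% of those tested) and 4447 were higher in females (26.9%), together 56.9% (adjusted p under 0.05 in the quasi-likelihood test of edgeR, 3 libraries per sex). The 3 male libraries did not overlap the 3 female libraries in 5598 genes with males higher (33.9% of those tested) and in 4831 with females higher (29.2%). Non-overlap held for 4638 of the genes called higher in males and for 4360 of those called higher in females. Where libraries with the same replicate number were set against each other, 4906 of the genes called toward males were higher in the male library of all 3 pairs, and 4435 of those called toward females were higher in the female library of all 3. Over all tested genes, called or not, 7737 were higher in the male library and 6041 in the female library of all 3 pairs. Non-overlap and pair counts use the libraries that gave the calls, so they describe the calls and are not a separate test.

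The balance between the directions depended on how libraries were scaled to each other. With trimmed-mean (TMM) scaling, used throughout, 52.7% of the calls were higher in males, against 65% when upper quartiles set the scale and 40% when only library size did. The median log2 fold change of males over females over all tested genes was 0.33, 0.67 and 0.05 under the 3 scalings. The size of a modest change therefore depends on the scaling. With TMM the median also moved with the genes tested, to 0.182 for genes with a mean of at least 1 CPM. TMM factors were 0.867 to 0.930 in male libraries and 1.09 to 1.14 in female libraries. With libraries 2 and 3 of each group alone, 5378 genes were called toward males and 4802 toward females. In the libraries numbered 1, 2 and 3, taken as separate pairs with no test, 4519, 4959 and 4804 genes exceeded 2-fold toward the male library, and 3704, 3850 and 3809 toward the female.

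Male-biased and female-biased genes differed in the sizes of their folds. At a minimum of 2-fold, 4212 genes lay toward males (25.5% of those tested) and 3583 toward females (21.7%). At a minimum of 4-fold the numbers were 1259 toward males and 1828 toward females, so more genes lay toward females. The excess toward males at 2-fold was not stable: it was 5792 toward males and 2764 toward females when upper quartiles set the scale, but 2813 and 4350 when only library size did, and 3571 and 3730 when the 6 N. giraulti libraries were fitted alone. At 10-fold, 451 genes lay toward males (2.73%) and 932 toward females (5.64%), and the excess toward females held in all 18 alternatives run. At 100-fold, 141 lay toward males and 263 toward females, and the other sex had at most 3 counts in 53 of the 141 and 46 of the 263, whose fitted folds depend on how 0 and near-0 counts are treated. The middle 50% of the genes called toward males had log2 fold changes from 1.17 to 2.01 (median 1.49). The middle 50% of those called toward females ran from -2.94 to -1.11 (median -1.69).

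**Figure D1:**
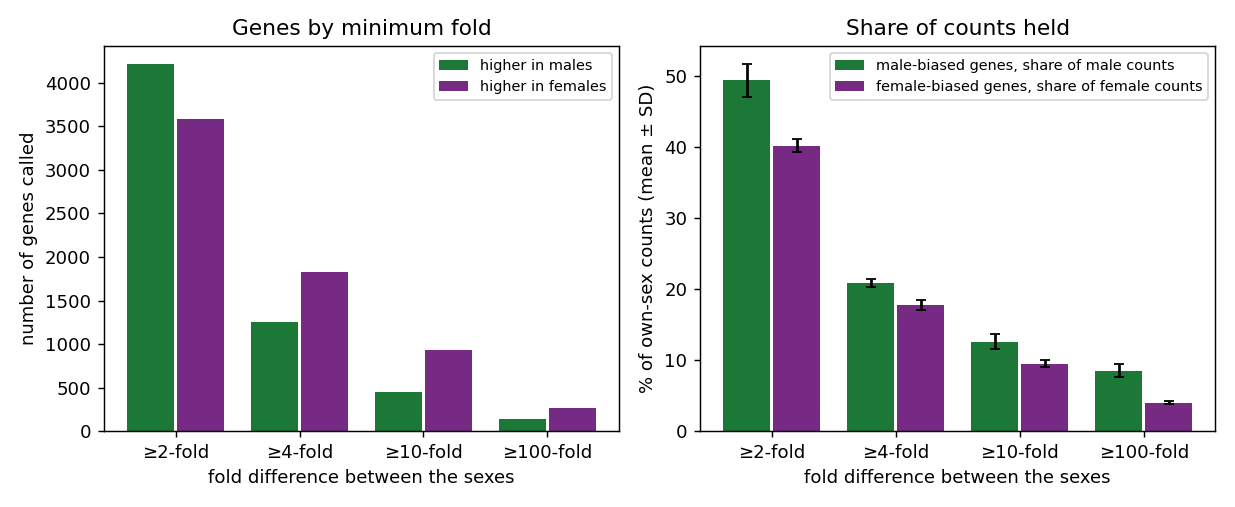
Left, number of genes called in each direction (y axis) at a minimum fold of 2, 4, 10 and 100 (x axis); right, the share of a sex's own counts held by the genes biased toward that sex, as the mean with SD over 3 libraries. Male-biased genes were more numerous at 2-fold with TMM scaling (4212 against 3583, but 2813 against 4350 with library size alone) and fewer at 10-fold (451 against 932), while at 10-fold they held 12.6% of male counts and the female-biased genes 9.53% of female counts.

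Fewer strongly male-biased genes held more of the counts. In the 100-fold class, the 141 male-biased genes took 9.49%, 8.41% and 7.67% of the counts in the 3 male libraries, and 0.0188%, 0.0129% and 0.0216% in the 3 female libraries. The 263 female-biased genes of that class took 0.0161%, 0.0138% and 0.0177% of the counts in male libraries, and 3.83%, 4.29% and 3.99% in female libraries. At 10-fold, the male-biased genes took 12.6% ± 1.09 of counts in males and 0.306% ± 0.0198 in females (SD, n = 3 each), and the female-biased genes took 0.217% ± 0.00155 in males and 9.53% ± 0.501 in females. At 2-fold, the female-biased genes took 8.55% ± 0.320 in males and 40.2% ± 0.945 in females. Genes called in neither direction took 26.5% ± 1.83 in males and 27.3% ± 0.601 in females. The genes in these sums were picked on the same libraries, so the shares describe them and are not a separate test.

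Counts were concentrated in fewer genes in males. The 10 genes with the highest counts in a library held 11.8%, 11.5% and 10.4% of the counts in the 3 male libraries, and 4.55%, 5.12% and 4.86% in the 3 female libraries. The highest 100 genes held 30.8% ± 0.741 in males and 19.2% ± 1.27 in females (SD, n = 3 each). The number of genes that together held 50% of a library's counts was 372, 393 and 419 in males and 955, 805 and 751 in females. None of these 3 measures overlapped between the sexes (exact permutation test, two-sided, p = 0.1 for each, the smallest that 3 against 3 libraries allows).

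**Figure D2:**
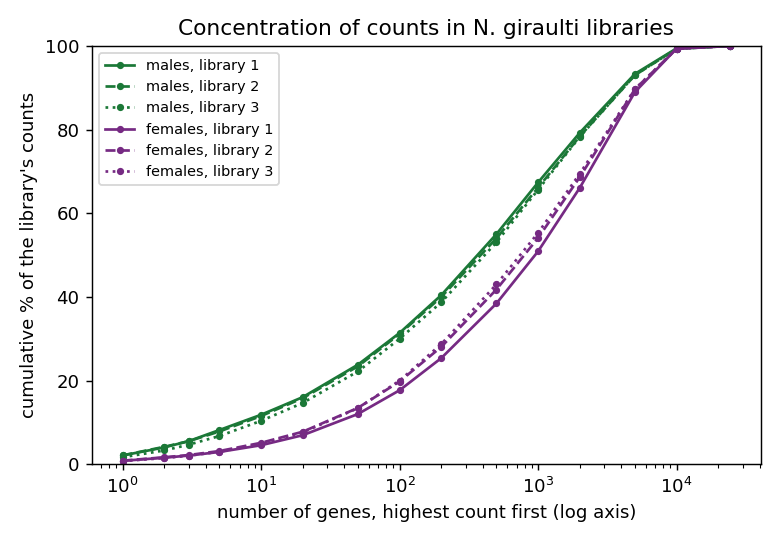
Cumulative percentage of a library's counts (y axis) against the number of genes, taken from the highest count down (x axis, log scale), for each of the 3 male and 3 female libraries. At 100 genes the male libraries average 30.8% and the female libraries 19.2%, with no overlap.

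The number of genes detected at 1 CPM or more, without TMM scaling, overlapped between the sexes. It was 12019, 12303 and 12429 in male libraries and 12017, 12154 and 12270 in female libraries (exact permutation test, two-sided, p = 0.4), although the male library was the higher in each pair of the same number. Genes with at least 1 count numbered 20011 ± 198 in males and 19468 ± 99.2 in females (SD, n = 3 each), with no overlap (exact permutation test, two-sided, p = 0.1). At 10 CPM or more there were 7789 ± 63.6 genes in males and 8669 ± 25.5 in females (SD, n = 3 each). At 100 CPM or more there were 1755 ± 57.7 and 2349 ± 143, with no overlap between the sexes at either level (exact permutation test, two-sided, p = 0.1 for each). These CPM are unscaled too. TMM factors averaged 0.904 in male and 1.11 in female libraries, so scaling would raise male CPM and lower female CPM. Numbers with TMM scaling were not computed. At 1000 CPM or more the order was the other way, with 125, 124 and 129 genes in males and 98, 109 and 119 in females, again with no overlap (p = 0.1, exact permutation test, two-sided). When each library was thinned to 26494192 counts, 14211 ± 216 genes kept at least 10 counts in males and 13834 ± 99.5 in females (SD, n = 3 each), again more in every male library than in any female library (exact permutation test, two-sided, p = 0.1).

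The direction of the calls changed with the CPM of a gene in its higher sex. Among 3242 genes under 1 CPM in both sexes, 22.9% were called toward males and 5.68% toward females, and among 3736 genes from 1 to 10 CPM the shares were 39.1% and 16.7%. Among 6741 genes from 10 to 100 CPM, 24.7% were called toward males and 38.6% toward females. From 100 to 1000 CPM the shares were 37.2% and 37.4% of 2618 genes. At 1000 CPM or more, 112 of 199 genes (56.3%) were called toward males and 57 (28.6%) toward females. The classes were formed with the levels that were tested and describe where the calls lie. The filter ran over all 12 libraries, so a gene low in N. giraulti could enter through N. vitripennis. With the 6 N. giraulti libraries alone, 14951 genes were tested, with 4431 called toward males and 4607 toward females. The classes were not recomputed for that fit or for other scalings. In the 10-fold class, the 3 middle classes held fewer genes toward males than toward females, with 149 and 209 from 1 to 10 CPM, 146 and 441 from 10 to 100 CPM, and 44 and 195 from 100 to 1000 CPM. Genes toward males were the more numerous under 1 CPM (90 toward males and 78 toward females) and at 1000 CPM or more (22 and 9).

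**Figure D3:**
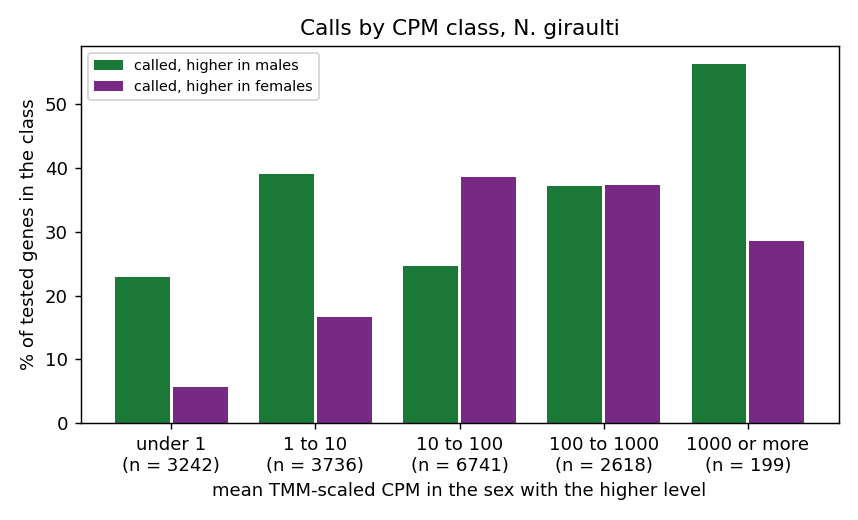
Percentage of the tested genes in each class that were called higher in males or higher in females (y axis), by the mean TMM-scaled CPM in the sex with the higher level (x axis, with the number of genes). In the fit of all 12 libraries with TMM scaling, male-biased calls prevail under 10 CPM and at 1000 CPM or more (56.3% against 28.6%). Female-biased calls prevail from 10 to 100 CPM (24.7% against 38.6%).

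**Figure D4:**
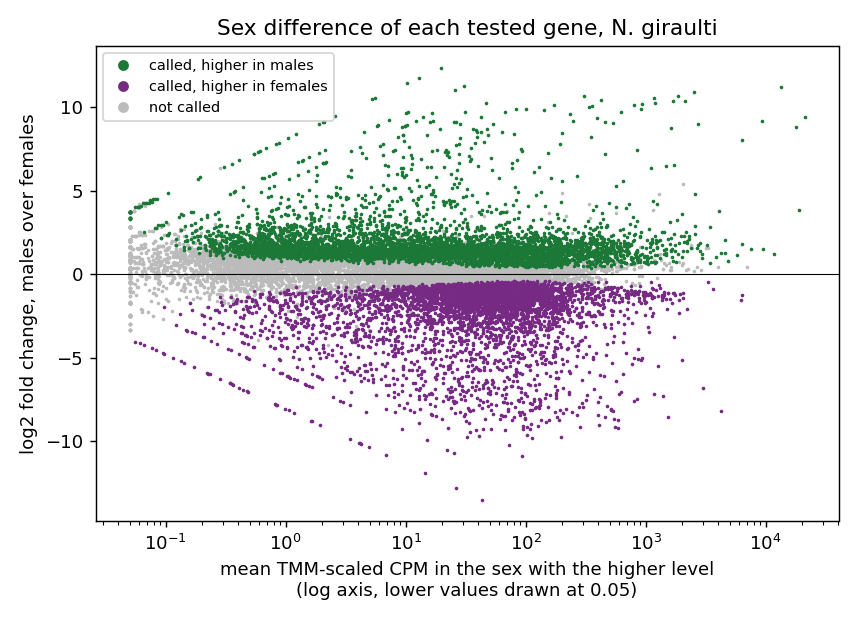
Log2 fold change of males over females (y axis) against the mean TMM-scaled CPM in the sex with the higher level (x axis, log scale), 1 point for each of 16536 tested genes, coloured by call. The points reach from -13.52 to 12.39, the slanted lines at the left are genes with few or no counts in 1 sex, and the highest points at the right, above 10000 CPM, are genes with the most counts in males.

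The genes with the largest difference in mean CPM between the sexes were then taken in each direction, leaving out genes with fractional counts. Nasvi2EG017727 had the highest mean CPM of all genes in males, although Nasvi2EG000206 exceeded it in male library 1. It stood at 22343, 23115 and 17980 CPM in male libraries 1 to 3, against 34.9, 15.2 and 41.0 CPM in female libraries 1 to 3. All male libraries lay far above all female ones, and the gene took 1.91% ± 0.225 of male counts and 0.00337% ± 0.00151 of female counts. The log2 fold change was 9.44 (SE 0.58, edgeR adjusted p = 3.07e-08), a ratio of 696. In N. vitripennis the same gene had a log2 fold change of 9.47 (SE 0.58), and the difference between the 2 sex effects was -0.03 (SE 0.58, edgeR adjusted p = 0.995). Each SE here is an approximation taken from the test of its own contrast. The SE of a difference therefore need not follow from those of the 2 effects.

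Nasvi2EG000206 ranked 3 in males. Its levels were 24217, 14656 and 14812 CPM in male libraries and 39.8, 31.5 and 49.2 CPM in female libraries. Male library 1 was the highest by a wide margin, yet the lowest male value was still far above the highest female value. The log2 fold change was 8.80 (SE 0.54, edgeR adjusted p = 2.70e-08), and the log2 ratios within pairs 1, 2 and 3 were 9.25, 8.86 and 8.24. The sex effect was larger than in N. vitripennis, where males had 2088 ± 1014 CPM and females 18.6 ± 5.53 (SD, n = 3 each), by 1.99 log2 units (SE 0.55, edgeR adjusted p = 0.0457). That difference lost its call when any single N. giraulti library was left out (adjusted p from 0.0668 to 0.115) and under other scalings.

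Nasvi2EG010626 showed the largest difference toward females. It stood at 8.51, 13.0 and 21.2 CPM in male libraries, against 2565, 4906 and 5242 CPM in female libraries. Library 1 was the lowest in both sexes, and the log2 ratios within the 3 pairs were -8.24, -8.56 and -7.95. The log2 fold change was -8.22 (SE 0.82, edgeR adjusted p = 6.28e-06), so that females had 298 times the male level. The gene held 0.466% ± 0.152 of female counts and ranked 5 there, whereas it ranked 7236 in males. Its sex effect in N. vitripennis was -7.62 (SE 0.80), and the difference of -0.60 (SE 0.85) between the species did not pass the test (edgeR adjusted p = 0.779).

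Nasvi2EG006904 was high in both sexes and higher in females. It had 1920, 2249 and 2192 CPM in male libraries and 4458, 7482 and 6890 CPM in female libraries. The groups did not overlap, although female library 1 stood well below the other two. Its log2 fold change of -1.57 (SE 0.28, edgeR adjusted p = 0.000398) is a 2.96-fold higher level in females, and it ranked 52 in males and 2 in females. The log2 fold change in N. vitripennis was -2.37 (SE 0.29), and the difference of 0.80 (SE 0.39) did not pass the test (edgeR adjusted p = 0.279).

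**Figure D5:**
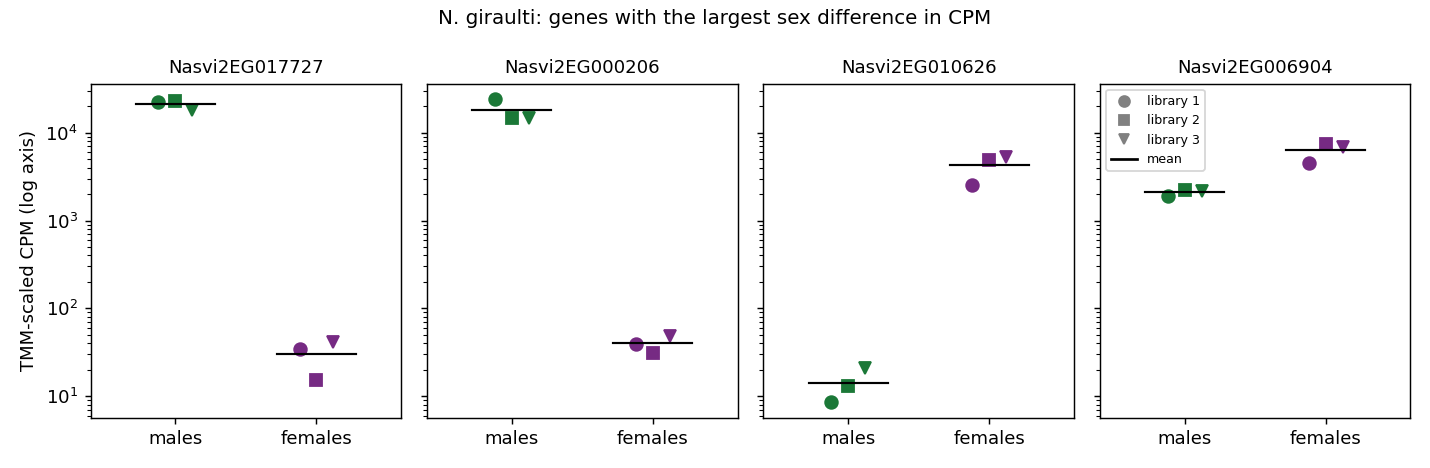
TMM-scaled CPM (y axis, log scale) of the 4 named genes, the 2 in each direction with the largest sex difference in mean CPM. Points are 3 male and 3 female libraries, with the mean as a line and the library number as the symbol. Nasvi2EG017727 and Nasvi2EG000206 lie above 10000 CPM in males and under 50 CPM in females, Nasvi2EG010626 averages 14.2 CPM in males and 4237 CPM in females, and Nasvi2EG006904 averages 2120 CPM in males and 6277 CPM in females.

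The 10 genes with the highest mean CPM in males were mostly male-biased. Of these, 9 were called higher in males, each at least 2-fold in estimate, and 1 was not called. The genes ranked 5, 6 and 8 did not pass the edgeR test against a 2-fold change (adjusted p 0.288, 0.12 and 0.0995). The ranking uses the male levels that were tested, so it favours genes higher in males. Over all tested genes, 30.0% were called higher in males. In addition to both genes named above, the gene ranked 2 had 17212, 22357 and 17504 CPM in male libraries and 910, 1595 and 1461 CPM in female libraries, with a log2 fold change of 3.85 (SE 0.30, edgeR adjusted p = 2.41e-07). It was thus among the highest of males and well expressed in females. Its sex effect exceeded that of N. vitripennis by 1.68 log2 units (edgeR adjusted p = 0.0169), a call lost without male library 2 (0.0572) and with upper-quartile scaling (0.0726).

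The gene ranked 4 had the largest fold change of the 10. Its levels were 15320, 13856 and 11113 CPM in male libraries and 6.06, 4.02 and 6.99 CPM in female libraries, a log2 fold change of 11.20 (SE 0.69, edgeR adjusted p = 3.55e-08). The gene ranked 7 stood at 9375 ± 1690 CPM in males and 16.2 ± 6.58 CPM in females (SD, n = 3 each), a log2 fold change of 9.17 (SE 0.54, edgeR adjusted p = 2.09e-08). The gene ranked 10 was the most even across male libraries, at 6613, 6400 and 6189 CPM, against 18.2, 22.5 and 30.8 CPM in female libraries. Its log2 fold change was 8.07 (SE 0.35, edgeR adjusted p = 1.94e-09).

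Other genes near the top were shared by the sexes. The gene ranked 5 in males ranked 4 in females, with 15350, 11528 and 8436 CPM in male libraries and 6620, 4762 and 3910 CPM in female libraries. The groups did not overlap, and in both sexes library 1 was the highest and library 3 the lowest. Its log2 fold change was 1.21 (SE 0.40, edgeR adjusted p = 0.0200), and the call was lost without female library 2 (0.0656), female library 3 (0.0801) or male library 1 (0.0878) and with library size alone (0.0606). The gene ranked 9 in males and 3 in females had 11344, 5198 and 4400 CPM in male libraries and 7196, 4043 and 4224 CPM in female libraries. Its groups overlapped, library 1 was the highest in each sex, and no sex difference was called (log2 fold change 0.44, SE 0.40, edgeR adjusted p = 0.355).

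The list for females was less one-sided. Of the 10 genes with the highest mean CPM in females, 6 were called higher in females and 2 higher in males. Of the 6, 4 were at least 2-fold in estimate. Among these 4, the gene ranked 1 did not pass the edgeR test against a 2-fold change (adjusted p = 0.213). The gene ranked 1 stood at 2070, 2628 and 3301 CPM in male libraries and 4434, 7835 and 6610 CPM in female libraries, without overlap, with a log2 fold change of -1.24 (SE 0.31, edgeR adjusted p = 0.00402). The gene ranked 9 was nearly restricted to females, with 34.5, 22.6 and 21.7 CPM in male libraries and 3184, 3032 and 2706 CPM in female libraries. Its log2 fold change was -6.82 (SE 0.35, edgeR adjusted p = 5.80e-09). Over the highest 100 genes, 74 of those ranked in males were called higher in males and 4 higher in females, and of those ranked in females 19 were higher in males and 62 higher in females. Each list was ranked on levels that were also tested, so it favours calls toward its own sex. The background was 30.0% of tested genes called toward males and 26.9% toward females. For genes at 1000 CPM or more in their higher sex, it was 56.3% and 28.6%. The lists for males and females shared 3 of their 10 genes and 41 of their 100.

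Genes that met a rule for being read in a single sex were few and of low level. The rule asked for at least 10 counts in every library of a sex and at most 3 counts over the 3 libraries of the other. It was met by 60 genes for males and 84 for females. All of them were called, against 30.0% of tested genes called toward males and 26.9% toward females. The rule uses the counts that were tested, so these calls were nearly fixed by it and are no separate support. The male-limited genes took 0.0327% ± 0.00159 of male counts and the female-limited genes 0.0430% ± 0.00674 of female counts (SD, n = 3 each). The median level was 3.04 CPM for the male-limited genes and 1.52 CPM for the female-limited ones, and none reached 100 CPM. The low level is partly set by the rule, because an abundant gene needs a far larger ratio to meet a cap on counts. The gene ranked 4 in males, at 13430 CPM in males and 5.69 CPM in females, did not meet it. The other sex had 0 counts for 16 of the male-limited and 21 of the female-limited genes. The numbers rise when a library of the other sex is left out, since at most 3 counts are then asked of fewer libraries, to 91 without female library 3 for the male-limited genes and to 157, 129 and 128 without male library 1, 2 or 3 for the female-limited genes.

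Among male-limited genes without fractional counts, the highest had 1083, 967 and 698 counts in male libraries, or 31.6, 32.0 and 28.4 CPM. It had 1 count over all female libraries. The scaled counts stood in a ratio of 3635, and its 95% counting interval of 652 to 143600 covers counting error only. In N. vitripennis the same gene had 7786 counts over the males and 5 over the females. The male-limited genes ranked 2 and 3 stood at 16.8 ± 3.84 and 16.6 ± 4.71 CPM in males (SD, n = 3), with 3 and 2 counts over all female libraries. Of the 60 male-limited genes, 33 met the same rule in N. vitripennis, and 25 had more than 3 counts over the N. vitripennis females.

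The highest female-limited gene had 0 counts over all male libraries and 1279, 2328 and 1333 counts in female libraries, or 28.8, 65.9 and 34.9 CPM. Set against a floor of 3 counts over the 3 male libraries together, its female level was 1245-fold higher. The lower 95% counting limit of the ratio was 1012, which covers counting error only. The female-limited gene ranked 2 had 3 counts over all male libraries and 29.3, 36.8 and 30.4 CPM in female libraries, which is 948 times the male level (counting interval 324 to 4600). It was nearly unread in N. vitripennis, with 7 counts over the males and 13 over the females, and its sex effect differed between the species (edgeR adjusted p = 0.000157). The one ranked 3 had 1 count over all male libraries and 24.4, 20.2 and 21.7 CPM in female libraries, but N. vitripennis had 510 counts over the males and 1151 over the females, and the sex effects differed too (edgeR adjusted p = 3.28e-05). Of the 84 female-limited genes, 18 met the same rule in N. vitripennis, and 53 had more than 3 counts over the N. vitripennis males.

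Calls on very few reads were rare. Of the genes called higher in males, 48 had under 10 counts over the 3 male libraries, and of those called higher in females, 4 had under 10 counts over the 3 female libraries. Females had 0 counts for 59 of the genes called toward males, and males had 0 counts for 41 of those called toward females. Genes of the 10-fold class that also reached 10 CPM in their own sex numbered 212 for males and 645 for females.

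Many genes that were not called were not shown to be even between the sexes. Of 7135 such genes (43.1% of those tested), 2078 had a 95% interval of the log2 fold change within 2-fold in either direction, and for the other 5057 a 2-fold difference lay inside the interval or no interval could be computed. A further 200 genes were called with an interval within 2-fold. Calls under 2-fold in estimate numbered 1606.

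The sex effects of N. giraulti were set against those of N. vitripennis with an interaction contrast, which passed for 7.02% of the genes tested. Among genes called higher in N. giraulti males, 370 of 4954 (7.47%) passed, and among those called higher in N. giraulti females, 467 of 4447 (10.5%). Of the 4954, 1110 were not called in N. vitripennis, and 111 of these passed the interaction test. Of the 4447, 396 were not called in N. vitripennis, and 96 of these passed. For most genes called in N. giraulti alone, then, a difference between the species was not shown. Among genes called in the same direction in both species that passed the interaction test, the effect was larger in N. giraulti for 50 of 148 toward males and for 81 of 305 toward females.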

How the data were processed

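Per the labels' protocols, total RNA of pools of 10 adults (24 h) was extracted with a Qiagen RNeasy Plus kit, and libraries were made from 2 ug with an Illumina TruSeq kit. The authors' deposited table holds estimated counts of reads for each gene with no scaling by library. The submitters' processing notes name TopHat2 2.0, HTSeq, Cufflinks 2.1.0, bedtools, Trimmomatic, FastQC, edgeR and CASAVA 1.8.2, without their roles. Build, annotation and strand handling: not given in the sources used here. Fractional values, present in 3372 of 24337 genes, were rounded. Such genes may share reads with others, which was not tested, and their levels are uncertain.

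The 12 libraries were fitted together by species and sex in edgeR 4.0.16 (R 4.3.3): filterByExpr with a minimum count of 10, TMM, robust quasi-likelihood fit, Benjamini-Hochberg adjustment over 16536 genes, threshold 0.05. CPM values are TMM-scaled in gene levels and unscaled in shares and detection counts. The standard error is the absolute log2 fold change over the square root of F. Named genes were the 2 per direction with the largest difference of mean CPM among called, non-overlapping genes without fractional values; other genes are given by rank. Gene lists planned by name were not run, because 0 of 24337 identifiers matched a table of 15501 genes. Members, lists and rules were chosen with earlier results of these data known.

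Same-numbered male and female libraries deviated together from their group means (r = 0.708, 0.438 and 0.485 for numbers 1 to 3, other pairs -0.574 to 0.314). Pairing by number was plainest for number 1. Male library 3 with female library 2 gave 0.208, and male 2 with female 3 gave 0.314. Centring on the mean of 3 libraries itself lowers r for unlike numbers. Any pairing rests on the data, as the labels only call the replicates independent batches. The main fit treated the libraries as unpaired. Replicates differed by more than sampling noise (chi-square per degree of freedom 40.06 to 246). Alternatives were other scalings, filters and samples, DESeq2 1.42.0, a replicate block, a test against a 2-fold change, and leaving out each N. giraulti library.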

Additional observations from a re-analysis of the deposited data

Results flagged for a closer look

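These results drew attention because the sex effect in N. giraulti differed from that in N. vitripennis in a test of the difference itself (edgeR interaction contrast, Benjamini-Hochberg adjusted p, n = 3 libraries per group). For Nasvi2EG000206 the adjusted p was 0.0457, and over the alternatives it ran from 0.0048 to 0.138. For the gene ranked 2 by CPM in males it was 0.0169 (0.00125 to 0.0726). For the gene ranked 10 in males it was 0.048 (0.0143 to 0.162), with a difference of 1.33 log2 units toward males in N. giraulti, and the call was lost without any single N. giraulti library other than female library 3 (0.0978 to 0.114). For the female-limited gene ranked 2 it was 0.000157 (1.05e-12 to 0.00837), and for the one ranked 3 it was 3.28e-05 (2.24e-11 to 0.0018). The calls of both female-limited genes held under all 15 alternatives run. These genes were picked for their levels or their restriction to a sex in N. giraulti, and how well reads of each species aligned was not tested, as the alignment reference is not known here.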

How the results depend on the processing

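The counts of genes higher in a sex, in total and at 2-fold and 10-fold, stayed within 1.5 times the reported values under the alternatives run, except in the test against a 2-fold change. That test called 1768 genes toward males, all of them at least 2-fold, and 2519 toward females. With the replicate block, 6300 genes were called toward males and 5160 toward females, and with the block in the 6 N. giraulti libraries alone 6025 and 5645; the block ended no call of a named gene. Toward females the balance turned without a low-count filter (4497 and 4541), with the 6 libraries alone without the block (4431 and 4607) and without female library 2 or 3 or male library 1. The log2 fold changes of the 4 named genes kept their direction and call in all 18 alternatives. The larger sex effect of Nasvi2EG000206 in N. giraulti lost its call with DESeq2 size factors (1.91), upper-quartile scaling (1.76), library size alone (1.61), a mean of at least 1 CPM (1.92) and libraries 2 and 3 alone (1.71), and stood between 1.66 and 2.17 without single libraries. The difference of Nasvi2EG017727, near 0, turned its sign with the replicate block (0.14) and in libraries 2 and 3 alone (0.14), and ran from -0.34 to 0.25 without single libraries. The log2 fold change of the gene ranked 9 in males, not called, was -0.16 without male library 1 and up to 0.74 without others. The cause was not tested. Male-limited genes numbered 29 at a minimum of 50 counts, 16 with 0 counts in the other sex and 61 to 91 without single libraries; female-limited genes numbered 38, 21 and 86 to 157, as stricter or looser rules give fewer or more. Depth limits what can be called sex-limited, as 3 counts in a single library are 0.0758 to 0.113 CPM.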

Other observations

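Genes with consecutive identifiers were compared in direction. Among 8238 pairs of consecutive identifiers with both genes tested and no fractional counts in either, both genes were called in 3242. Both were higher in males in 1037 pairs and higher in females in 1124, and in 1081 pairs the directions were opposite, so that 66.7% of these pairs shared a direction. Over all called genes 52.7% were higher in males, and the share expected of unrelated pairs was not computed. Whether consecutive identifiers are neighbours in the genome is not known here, and no test was made. Genes with fractional counts were called about as often as the rest. Of 2763 such genes, 26.9% were called toward males and 28.2% toward females, against 30.6% and 26.6% of the 13773 others.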
